A study of Mus musculus with 8 samples.

Results

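The ligands and receptors of the tumor necrosis factor (TNF) superfamily were examined in skeletal stem cells (SSCs) and bone cartilage stroma progenitors (BCSPs) of the mouse fracture callus. Members were taken by gene symbol. These were Tnf, Fas, Fasl, Lta, Ltb, Ltbr and every numbered Tnfsf or Tnfrsf gene with an annotated probe set of its own, leaving out Tnfsf11, Tnfrsf11a and Tnfrsf11b, the RANKL, RANK and osteoprotegerin genes of osteoclast control. The rule gave 29 genes, 10 ligands and 19 receptors, on 45 probe sets, among 18193 genes with a probe set of their own. Tnfsf12 and Tnfsf13 are annotated only together with other symbols, and they and Tnfsf15, Tnfsf18 and Tnfrsf26 were not analysed here.

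Ligands of this family are made as membrane proteins that act as trimers, and several are also cut from the surface and act as soluble cytokines. Their receptors either carry a death domain, which can recruit caspase-8, or bind TRAF adaptors that lead to NF-kB and MAP kinases, and decoy receptors bind ligand without passing on a death signal. In bone repair TNF belongs to the early inflammatory phase and is known to act on callus cartilage removal, while most costimulatory members of the family are known from lymphocytes.

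Affymetrix mouse arrays were run on cells sorted directly from femoral fracture callus without culture, with 4 arrays of SSCs and 4 of BCSPs. Both populations came from male C57/Bl6 mice aged 10 to 12 weeks with a bicortical femoral fracture held by an intramedullary pin, and 10000 cells were sorted for each population in each of 4 experiments. Both were gated as CD51+ cells that were CD45-, Ter119-, Tie2-, Thy1- and 6C3-. SSCs, the apex of the skeletal lineage, were further CD200+ and CD105-, and BCSPs, their downstream progenitors, were CD105+. The comparison asks how the family's expression differs between a stem cell and its first progenitor in the same injury, and no array of uninjured bone or of unsorted callus was analysed here. The sample labels put the harvest at day 7 after fracture. The text of the study gives a later day for the same calluses, and the difference could not be settled. Each experiment gave 1 SSC and 1 BCSP array. The study's legend speaks of different mice, so the experiments were taken as separate animals.

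The deposited value of a probe set is its Gene Expression Commons activity score, which runs from -100 to 100. A score of 0 is the threshold between low and high expression of that probe set over a large reference of public mouse arrays. A gene above 0 is called active here. The score places a gene within its own range and gives neither a fold change nor a ranking of mRNA amounts between genes, and a gene below 0 need not be silent. In RNA pooled from sorted cells, fewer cells that express a gene and less RNA in each cell cannot be told apart.

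The sort was checked on its marker genes. Eng, which encodes CD105, averaged -45.6 ± 14.4 (SD, n = 4) in SSCs, and in BCSPs it was 12.8 ± 24.9 (SD, n = 4), with every SSC array below every BCSP array (exact two-sided permutation p = 0.0286, the smallest that 70 assignments allow; limma adjusted p = 1). The permutation took all arrays as exchangeable, so its p ignores the pairing of the arrays by experiment. The BCSP arrays scored 50.1, -0.37, 2.67 and -1.02, so the positive mean rests on BCSP array 1, without which the difference was -46.0 points. Itgav (CD51) and Cd200 were active on all 8 arrays, and the genes of markers gated out, Enpep (6C3), Thy1, Tek (Tie2) and Ptprc (CD45), were below 0 on all 8. Of the cartilage markers 9 of 9 measured, and of the bone markers 5 of 5 measured, were active on all 8. Of 10 macrophage markers 9 were below 0 on all 8 arrays. The exception, Laptm5, was above 0 on 3 SSC arrays, at up to 73.9, and on no BCSP array, by 1 of its 5 probe sets. The median of the macrophage list on an array lay between -72.0 and -68.5 in SSCs and between -78.9 and -58.3 in BCSPs. Neutrophil markers (5 measured), endothelial markers (10) and muscle markers (7) were below 0 on every array. The endothelial median was nevertheless lower on each SSC array, from -82.6 to -78.2, than on any BCSP array, from -69.9 to -44.7. Of the mast cell markers 3 of 4, and of the erythroid markers 2 of 3, were below 0 on all 8, with Hba-a1 above 0 on 5 arrays. Of 6 T and NK cell markers, Cd8a alone was active, by 1 of its 5 probe sets, whereas Cd3e and Cd3g were below 0 throughout. Arrays of experiment 3 stood apart in the actin controls of RNA quality. The 3′ minus 5′ score of actin was 59.6 and 64.9 points there and 23.1 to 44.2 points elsewhere, while that of Gapdh, 21.3 to 71.9 points, did not set them apart. Their medians over all genes, -25.4 in SSCs and -21.6 in BCSPs, were also the lowest of the 8.

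Across the 29 genes, 3 receptors were active on all 8 arrays, 18 genes were below 0 on all 8, and 8 were mixed. Of all genes, 25% were active on all 8 arrays and 43.5% were below 0 on all 8. The median of the gene means was -29.4 points, beside -18.4 over all genes. The 3 active receptors were Tnfrsf22, Tnfrsf1a and Tnfrsf12a. Averaging the probe sets of each gene, or asking for every probe set, left 1, Tnfrsf1a, which has a single probe set. With a threshold at the 95th percentile of probe sets of 43 genes known from other organs, which lay between -8.49 and 9.26 on the 8 arrays, 6 receptors passed on all 8, those 3 with Tnfrsf23, Tnfrsf10b and Tnfrsf13c. No ligand was active throughout, and 8 of 10 ligands were below 0 on all 8 arrays, with a median of -45.6 points. Of the 19 receptors 10 were below 0 on all 8 arrays, and their median was -21.0 points.

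**Figure D1:**
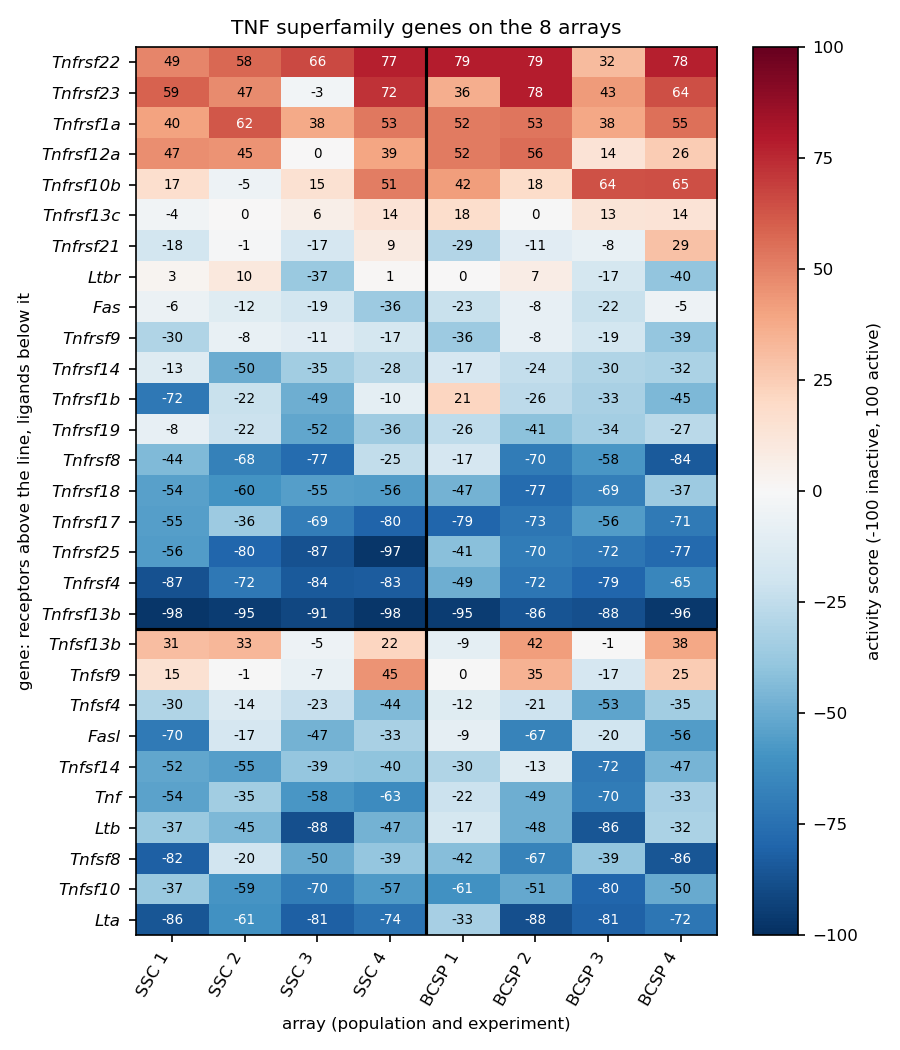
Activity score of each TNF superfamily gene (vertical axis, receptors above the line and ligands below it, ordered by mean) on each of 4 SSC and 4 BCSP arrays (horizontal axis), with the rounded score in each cell. Red cells are above 0 and blue cells below it, and 3 receptors at the top are above 0 on all 8 arrays while 8 of 10 ligands are below 0 on all 8.

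TNF and its closest relatives were low in both populations. Tnf, which encodes the founding cytokine of the family, scored -53.8, -34.8, -57.8 and -63.1 on SSC arrays 1 to 4 and -21.5, -48.7, -70.2 and -33.1 on BCSP arrays 1 to 4. Lta (lymphotoxin alpha), which shares the TNF receptors, ranged from -88.1 to -33.1 over the 8 arrays. No array brought either gene near its threshold. Ltb (lymphotoxin beta), the partner of Lta in the membrane-bound heterotrimer, ranged from -88.1 to -17.3. Its lowest scores, -88.1 in SSCs and -85.9 in BCSPs, were both on experiment 3 arrays. Tnfsf14 (LIGHT), a further ligand of the lymphotoxin beta receptor, ranged from -71.7 to -12.9 by its higher probe set, and its second probe set was also below 0 on all 8 arrays. Ltb, Tnf and Lta are direct neighbors on chromosome 17, with no other protein-coding gene between them in the RefSeq gene table.

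Tnfrsf1a (probe set 1417291_at), the main receptor for soluble TNF and a death domain receptor, was active on every array. It scored 39.9, 62.0, 38.2 and 53.1 on SSC arrays 1 to 4 and 52.2, 53.3, 38.4 and 54.8 on BCSP arrays 1 to 4. All values lay well above 0, and the groups overlapped almost fully. Its mean was 48.3 ± 11.3 (SD, n = 4) in SSCs, and in BCSPs it was 49.7 ± 7.58 (SD, n = 4). The difference was -1.37 points (SE 7.81, 95% confidence interval -19.1 to 16.4, limma adjusted p = 1), and its sign changed with the setting. Tnfrsf1b, the second TNF receptor, which has no death domain, was below 0 on 7 arrays and at 21.2 on BCSP array 1. It scored -71.6, -22.2, -48.9 and -10.1 on SSC arrays 1 to 4 and 21.2, -26.3, -32.7 and -45.0 on BCSP arrays 1 to 4. The first experiment thus held both the lowest and the highest value. The difference of -17.5 points (SE 18.2, adjusted p = 1) turned to 7.58 points without the arrays of experiment 1, and the gene's other probe set stayed between -34.9 and -19.9.

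Ltbr, the lymphotoxin beta receptor, lay around its threshold. Its scores were 2.96, 10.5, -37.2 and 0.90 on SSC arrays 1 to 4 and 0, 7.45, -17.3 and -39.6 on BCSP arrays 1 to 4, so that 4 arrays were above 0. Tnfrsf14 (HVEM), a second receptor of LIGHT, was below 0 on all 8 arrays, from -49.6 to -12.9. Ltbr and Tnfrsf1a lie on chromosome 6 with 1 protein-coding gene between them.

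The start regions of Tnf, Lta, Tnfrsf1a and Tnfrsf12a are shown as examples of genes below 0 on all arrays and of genes active on all. They run from 250 bases before to 50 after the annotated start (RefSeq, GRCm38.p6, each 5′ to 3′ on the strand of the gene), and capitals mark each CG dinucleotide and each TATAAA. They lie at chr17:35201958-35202257 (Tnf, minus strand), chr17:35205302-35205601 (Lta, minus strand), chr6:125349473-125349772 (Tnfrsf1a, plus strand) and chr17:23677400-23677699 (Tnfrsf12a, minus strand).
Tnf: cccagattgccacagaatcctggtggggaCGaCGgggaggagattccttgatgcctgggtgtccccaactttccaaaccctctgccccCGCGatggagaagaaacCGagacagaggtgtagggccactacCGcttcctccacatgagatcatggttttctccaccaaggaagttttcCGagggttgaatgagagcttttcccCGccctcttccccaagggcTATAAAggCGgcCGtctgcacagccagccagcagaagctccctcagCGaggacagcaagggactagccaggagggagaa
Lta: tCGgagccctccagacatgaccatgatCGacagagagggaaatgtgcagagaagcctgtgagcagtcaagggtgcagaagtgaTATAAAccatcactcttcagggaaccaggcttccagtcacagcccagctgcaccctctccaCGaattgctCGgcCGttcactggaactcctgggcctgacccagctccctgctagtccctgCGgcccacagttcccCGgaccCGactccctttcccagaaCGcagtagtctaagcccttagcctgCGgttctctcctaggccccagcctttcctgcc
Tnfrsf1a: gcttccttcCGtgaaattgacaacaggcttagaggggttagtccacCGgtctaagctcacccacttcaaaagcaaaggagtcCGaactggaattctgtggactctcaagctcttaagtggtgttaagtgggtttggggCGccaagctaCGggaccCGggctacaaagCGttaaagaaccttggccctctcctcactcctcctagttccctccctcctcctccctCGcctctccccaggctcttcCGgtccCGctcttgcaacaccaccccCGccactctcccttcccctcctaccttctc
Tnfrsf12a: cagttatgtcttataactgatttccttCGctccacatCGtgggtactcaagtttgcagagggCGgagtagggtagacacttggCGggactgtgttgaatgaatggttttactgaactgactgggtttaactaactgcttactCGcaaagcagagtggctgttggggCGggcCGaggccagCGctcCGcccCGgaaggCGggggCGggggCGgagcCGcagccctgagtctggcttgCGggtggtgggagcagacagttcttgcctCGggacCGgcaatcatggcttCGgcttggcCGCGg
The letters TATAAA, searched on the strand of the gene, begin at position -29 from the start in Tnf and at -167 in Lta. Among the 29 windows of family genes they are in 3, those of Tnf, Lta and the receptor Tnfrsf17, and 8.32% of 32851 windows in the table hold them. The windows of Tnf, Lta, Tnfrsf1a and Tnfrsf12a hold 11, 10, 11 and 20 CG dinucleotides, where the median over all windows was 7. An NF-kB consensus was searched on both strands as the letters GGGRNNYYCC, with R for A or G, Y for C or T and N for any base. It is in 4 of the 29 windows, of Ltb, Tnfrsf8, Tnfrsf9 and Tnfrsf25, which are not shown, and in 8.46% of all. The 29 windows belong to 25 of the 29 genes. Tnfrsf22, Tnfrsf10b, Tnfsf9 and Tnfsf4 had no window and were not searched. Every searched family gene with either motif was below 0 on all arrays. So were 18 of all 29 family genes, among them Fas and Fasl, which hold neither motif. These matches describe letters only, and whether they separate active from inactive genes was not tested.

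The ligands of death receptors were also below their thresholds. Fasl, the Fas ligand of cytotoxic lymphocytes, ranged from -70.4 to -9.12, and Tnfsf10, which encodes TRAIL, ranged from -79.6 to -36.8 over the 8 arrays. The 1 further probe set of Fasl and both further probe sets of Tnfsf10 were below 0 on all arrays too. Fas, the death receptor of Fasl, came nearer to its threshold without crossing it. It scored between -36.4 and -5.57 in SSCs and between -22.5 and -5.35 in BCSPs.

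Tnfrsf10b, the TRAIL death receptor of the mouse, was active on 7 of 8 arrays by probe set 1421296_at. It scored 16.6, -4.96, 15.2 and 50.9 on SSC arrays 1 to 4 and 41.9, 18.4, 64.0 and 64.6 on BCSP arrays 1 to 4. The SSC array was the lower one in all 4 experiments, with SSC minus BCSP differences of -25.3, -23.4, -48.8 and -13.8 points, though SSC array 4 exceeded the BCSP arrays of experiments 1 and 2, so that the groups overlapped. The mean was 19.4 ± 23.2 (SD, n = 4) in SSCs, and in BCSPs it was 47.2 ± 21.9 (SD, n = 4). The difference was -27.8 points (SE 15.2, 95% confidence interval -62.4 to 6.71, unadjusted p = 0.101, limma adjusted p = 1). With the experiment as a replicate block the 95% confidence interval was -47.5 to -8.12, the unadjusted p 0.0141 and the adjusted p over all genes 0.928, so it was not called in either fit. The second probe set of the gene, 1422344_s_at, averaged -30.3, was above 0 on 1 array and differed by -7.58 points (SE 20.3), being lower in SSCs in 3 of 4 experiments. Of the 10 endothelial markers, all at scores below 0, 8 also averaged lower in SSCs than in BCSPs. The other 2, Cdh5 (difference 28.6 points) and Pecam1 (3.36 points), averaged higher in SSCs. The part of endothelial cells in the Tnfrsf10b difference was not tested.

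The TRAIL decoy receptors of the mouse were active on most arrays by their highest probe sets. Tnfrsf22, by probe set 1422038_a_at, scored 48.8, 57.6, 65.8 and 77.4 on SSC arrays 1 to 4 and 78.9, 78.7, 31.7 and 78.0 on BCSP arrays 1 to 4. All 8 arrays were above 0, and BCSP array 3 was far below the other BCSP arrays. Its further probe sets, 1426095_a_at and 1422039_at, were above 0 on 3 arrays and on none, so the call of activity rests on 1 of 3 probe sets. Tnfrsf23 (1422101_at) scored 59.2, 47.2, -2.51 and 72.0 on SSC arrays 1 to 4 and 36.4, 78.5, 42.8 and 64.5 on BCSP arrays 1 to 4. It was active on 7 arrays, and SSC array 3 was the exception. The difference was -4.43 points (SE 11.4, adjusted p = 1) for Tnfrsf22 and -11.6 points (SE 16.6, adjusted p = 1) for Tnfrsf23. For Tnfrsf22 it was -16.1 points without BCSP array 3 (unadjusted p = 0.0435, limma adjusted p = 1) and 4.12 without experiment 1. The genes are direct neighbors on chromosome 7 and close in sequence, so how far their probes read each other's transcripts was not tested.

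Tnfrsf12a (Fn14) encodes the small receptor of TWEAK, which is known to be induced in injured tissue. Probe set 1418572_x_at, whose suffix marks probes that may cross-hybridize, scored 46.8, 45.0, 0.45 and 39.2 on SSC arrays 1 to 4 and 52.1, 55.9, 14.0 and 25.6 on BCSP arrays 1 to 4. It was above 0 on all 8 arrays, barely so on SSC array 3. The second probe set, 1418571_at, followed it closely and was at -5.24 on SSC array 3, so that it was above 0 on 7 arrays. The difference was -4.02 points (SE 14.4, 95% confidence interval -36.7 to 28.6, adjusted p = 1) and was 6.78 points without SSC array 3. Both experiment 3 arrays, those with the wider 3′ to 5′ gap of actin but not of Gapdh, were the lowest of their group. The part of RNA quality in this was not tested.

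**Figure D2:**
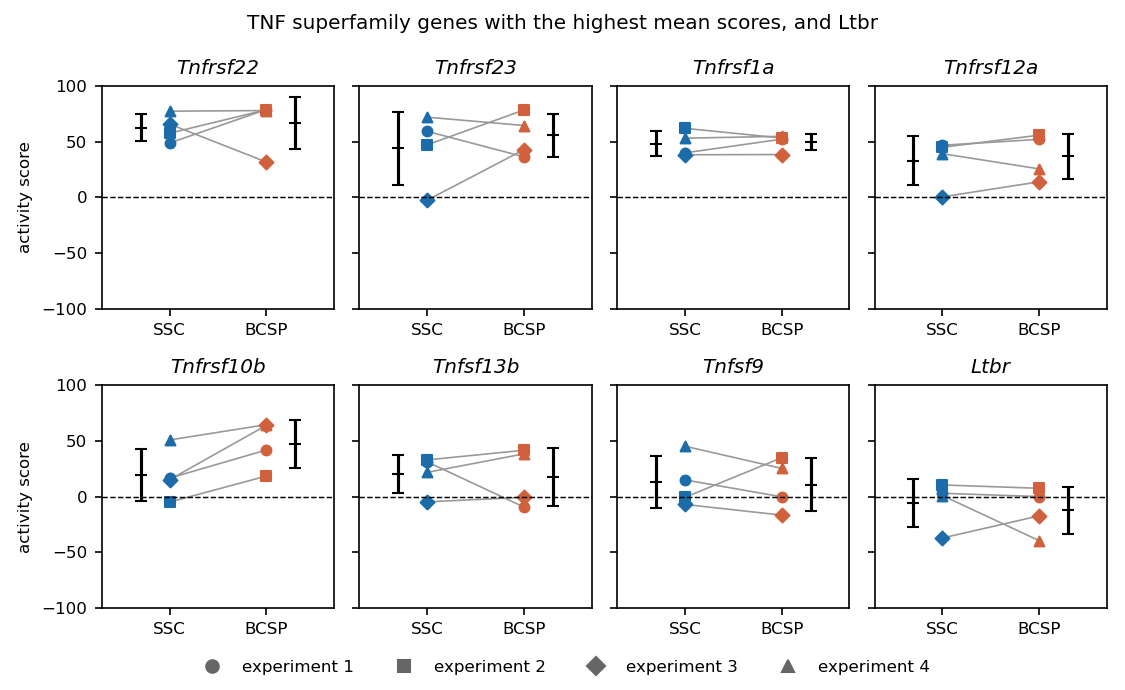
Activity score (vertical axis) of 7 genes with the highest mean scores and of Ltbr on SSC and BCSP arrays, with grey lines joining the arrays of 1 experiment and black bars giving mean ± SD (n = 4). Tnfrsf1a lies between 38.2 and 62.0 in both populations, and the SSC point of Tnfrsf10b is the lower one in all 4 experiments while the groups overlap.

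The remaining death domain receptors were low. Tnfrsf21 (DR6), known from neurons and lymphocytes, was above 0 on 1 SSC array (8.89) and 1 BCSP array (29.0), both of experiment 4, and its other probe set did not exceed -49.8. Tnfrsf25 (DR3), the receptor of TL1A, scored -55.7, -79.6, -87.0 and -97.4 on SSC arrays 1 to 4 and -41.5, -70.3, -72.5 and -77.4 on BCSP arrays 1 to 4. It was the lower in SSCs in 4 of 4 experiments (difference -14.5, SE 11.2, adjusted p = 1), but at scores far below the threshold on every array. With the experiment as a replicate block the 95% confidence interval was -29.1 to 0.00422 (limma unadjusted p = 0.05005, adjusted p = 0.928). Without both arrays of an experiment the difference stayed between -16.2 and -12.7 points. Single arrays moved it more. Without BCSP array 1 it was -6.55 points, without SSC array 4 -8.71 and without SSC array 1 -22.6.

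Among costimulatory members, 1 ligand reached its threshold and no receptor did. Tnfsf9 (4-1BB ligand) scored 15.0, -0.71, -7.04 and 45.3 on SSC arrays 1 to 4 and -0.19, 34.8, -16.6 and 25.3 on BCSP arrays 1 to 4, so that 4 arrays were above 0, 2 in each population. Tnfsf4 (OX40 ligand) ranged from -52.8 to -12.5 and Tnfsf8 (CD30 ligand) from -85.8 to -19.5. The receptors Tnfrsf9 (4-1BB), Tnfrsf8 (CD30), Tnfrsf18 (GITR) and Tnfrsf4 (OX40), which support T cell activation, were below 0 on all 8 arrays. Tnfrsf4 had the smallest unadjusted p of the family in the fit without a block (0.0936), though not with the experiment as a replicate block (0.128). It scored -87.1, -71.8, -84.0 and -83.0 on SSC arrays 1 to 4 and -48.7, -72.1, -79.5 and -65.3 on BCSP arrays 1 to 4, a difference of -15.1 points (SE 8.02, adjusted p = 1) between groups that were low throughout. It was -9.17 points without BCSP array 1 and -7.28 without both arrays of experiment 1. Tnfrsf9 was the only gene of the 29 that was higher in SSCs in 4 of 4 experiments (difference 8.74, SE 11.2, adjusted p = 1). Its probe set 1460469_at went the same way in all 4 (difference 28.0, SE 12.3, limma unadjusted p = 0.0488). Of the 45 family probe sets tested singly it was the 1 under an unadjusted p of 0.05, and 0 were called. The remaining probe set of Tnfrsf9 averaged lower in SSCs (difference -2.87, SE 17.0), with experiment 1 at -33.2 points.

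In the BAFF and APRIL branch, which is known for B cell survival, a ligand and a receptor were above 0 on 5 arrays each and the rest of those measured on none. Tnfsf13b, which encodes BAFF, scored 31.2, 33.0, -4.74 and 21.7 on SSC arrays 1 to 4 and -9.45, 41.6, -0.66 and 38.4 on BCSP arrays 1 to 4. The arrays below 0 were both of experiment 3 and BCSP array 1. Its further probe sets were above 0 on 5 and on 2 arrays. Tnfrsf13c (BAFF receptor) stayed close to 0, from -3.78 to 17.6. Tnfrsf13b (TACI) was the lowest gene of the family, between -97.6 and -86.2, although its SSC array was the lower one in 4 of 4 experiments (difference -3.83, SE 5.23, adjusted p = 1). Tnfrsf17 (BCMA), the plasma cell receptor, scored -55.0, -36.1, -68.9 and -80.1 on SSC arrays 1 to 4 and -79.4, -72.6, -55.8 and -70.7 on BCSP arrays 1 to 4. It was the higher in SSCs in 2 of 4 experiments (difference 9.59, SE 10.5, adjusted p = 1), and the difference was 1.60 without SSC array 2, 0.603 without experiment 2 and 17.2 without experiment 3. Of 5 B cell markers measured 3 were below 0 on all 8 arrays, while Pax5 was above 0 on 6 and Ighm on 1. Tnfrsf19 (TROY), a receptor known from neural and epithelial progenitors, ranged from -52.0 to -8.22 and completed the list, and its further probe sets were below 0 throughout.

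**Figure D3:**
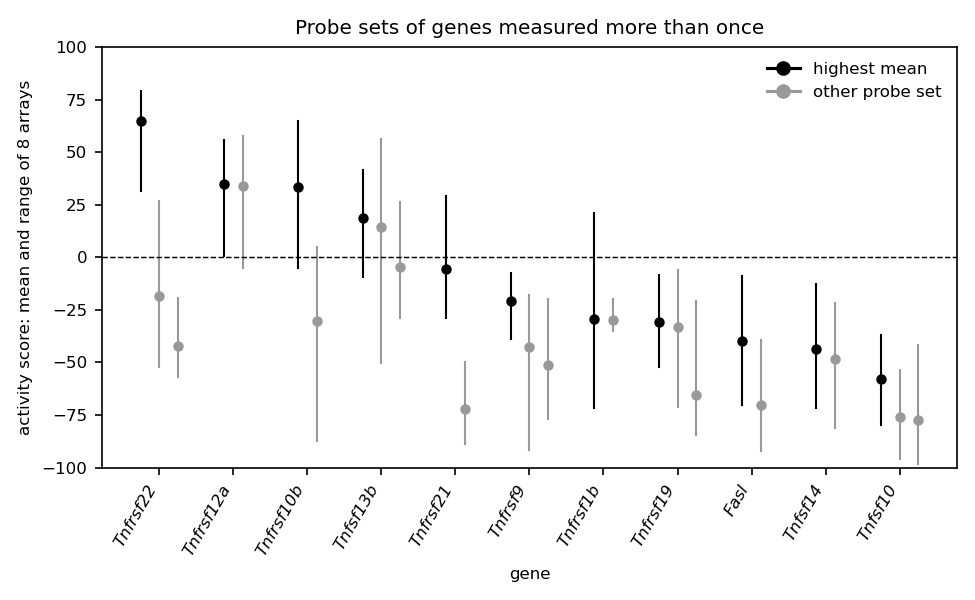
Mean (point) and range (line) of the activity score over 8 arrays for every probe set of the 11 TNF superfamily genes that have several, with the probe set of the highest mean in black. Both probe sets of Tnfrsf12a are close, with means of 34.9 and 34.0, while the further probe sets of Tnfrsf22 and Tnfrsf10b have means below 0.

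No TNF superfamily gene was called between SSCs and BCSPs (limma, adjusted p threshold 0.05). Of all 18193 genes 0 (0%) were called, so the fit separated no gene at this size. At an unadjusted p under 0.05 it listed 2.56% of all genes and 0 of the 29. With the experiment as a replicate block it listed 5.22% of all genes and 1 of the 29, Tnfrsf10b. None of the 29 had groups that did not overlap, against 0.544% of all genes with every SSC array above every BCSP array and 0.797% with every SSC array below. Of the 29, 3 genes (Tnfrsf10b, Tnfrsf25 and Tnfrsf13b) were lower in SSCs in 4 of 4 experiments, where 8.03% of all genes were, and 1 (Tnfrsf9) was higher, where 4.38% were. These shares are near those of all genes. The median difference over the 29 was -3.83 points and over all genes -0.998 points, and 18 of the 29 were lower in SSCs, beside 10150 of all 18193. The 4 arrays in each group limit the precision. The confidence interval of the difference spanned from -15.7 to 8.04 points for Tnfrsf13b, the narrowest, and from -58.9 to 23.8 for Tnfrsf1b, the widest, and a missed threshold does not show that the populations are alike.

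**Figure D4:**
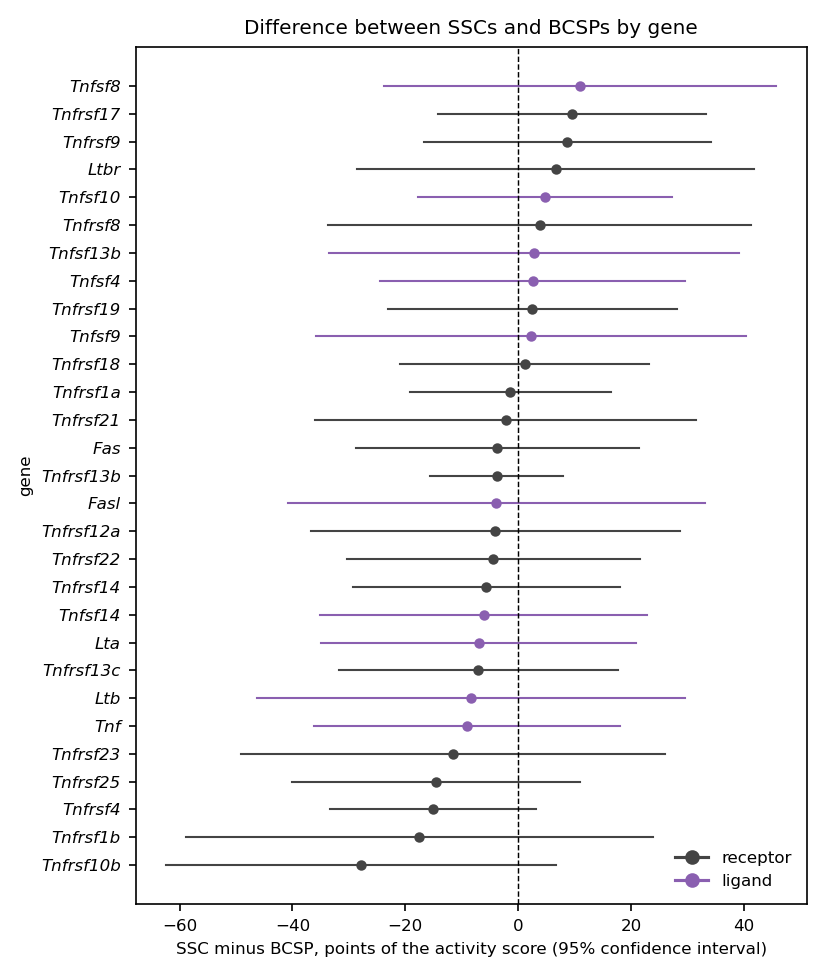
SSC minus BCSP difference of the activity score with its 95% confidence interval from limma (horizontal axis, points of the score) for each of the 29 genes (vertical axis), with receptors in grey and ligands in purple. Every interval of this fit without a block crosses 0, and Tnfrsf10b has the most negative difference, -27.8 points, whose interval with the experiment as a replicate block was -47.5 to -8.12.

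Ligand and receptor were set side by side for 17 known pairs with both members measured. In none were both active on all 8 arrays, and in 4 both were below 0 on all 8. Those 4 were Fasl with Fas, Tnfsf14 with Tnfrsf14, Tnfsf4 with Tnfrsf4 and Tnfsf8 with Tnfrsf8. In 3 pairs the receptor was active on all 8 arrays, and in each of these the ligand was below 0 on all 8. Of all 10 ligands measured, 8 were below 0 on all 8 arrays. The 3 pairs were Tnf with Tnfrsf1a, Lta with Tnfrsf1a and Tnfsf10 with Tnfrsf22, which is active by 1 of its 3 probe sets. The reverse order was seen for Tnfsf9, above 0 on 4 arrays with its receptor Tnfrsf9 on none. It was also seen for Tnfsf13b, above 0 on 5 arrays with Tnfrsf13b and Tnfrsf17 on none. Pairs share members, so they are not independent of each other.

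Of family members with other kinds of names, 0 of 9 were active on all 8 arrays and 6 were below 0 on all 8. Eda (ectodysplasin), which acts in skin appendages, had the highest mean of them at -6.21, and Cd40, the receptor of CD40 ligand, was below 0 on all 8 arrays. Cd70 and Cd27, a ligand and receptor pair of lymphocytes, had the smallest unadjusted p-values (0.0892 and 0.103, adjusted p = 1 each by limma).

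Of the adaptors and enzymes next to the receptors, 29 of 32 listed were measured. On all 8 arrays 6 were active and 8 were below 0, with a median of -1.41 points, and 0 were called. Map3k5 (ASK1), a kinase upstream of JNK and p38, averaged 92.5 points over the 8 arrays, Map3k7 (TAK1) 80.7, its binding partner Tab2 66.1, and Ripk3, a necroptosis kinase, 50.4. Tradd, the adaptor of the TNF receptor, ranged from 14.2 to 65.0, and Casp8 from 4.59 to 30.4. Fadd, which joins death receptors to caspase-8, ranged from -89.2 to -41.5, and Mlkl, the effector below Ripk3, from -59.0 to -25.6. The list therefore held active and inactive links of the same route by this score. Sharpin, a subunit of the linear ubiquitin ligase, scored -11.3, -37.4, -7.24 and -11.6 on SSC arrays 1 to 4 and -5.98, 3.43, 32.4 and 26.5 on BCSP arrays 1 to 4. It was the 1 gene of the list whose groups did not overlap (difference -31.0, SE 13.6, unadjusted p = 0.0493, limma adjusted p = 1). Of all genes, 0.797% had every SSC array below every BCSP array. The other probe set of Sharpin was above 0 on 2 arrays. Traf5, a further TRAF adaptor, had the next smallest unadjusted p (0.298) and was below 0 on all 8.

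Of 6 genes that carry out or control the cutting of TNF and its receptors from the surface, 4 were active on all 8 arrays. They were Adam17 and 3 of its regulators. Adam17 (TACE), the main TNF sheddase, averaged 53.9 ± 6.52 (SD, n = 4) in SSCs, and in BCSPs it was 50.5 ± 16.7 (SD, n = 4), though its other probe sets were above 0 on no array. Timp3, its inhibitor, averaged 69.0 over the 8 arrays, the Adam17 partner Rhbdf1 (iRhom1) 41.2, and Furin, which matures Adam17, 34.1. Rhbdf2 (iRhom2), known from macrophages, was below 0 on all 8 arrays, and Adam10, a related protease, was above 0 on 1. None of the 6 was called.

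Genes known to respond to TNF were split. Of 24 measured, 9 were active on all 8 arrays and 9 were below 0 on all 8, with a median of 5.52 points. Tnfaip6 (TSG-6), a hyaluronan-binding protein of cartilage and inflammation, averaged 99.4 ± 0.175 (SD, n = 4) in SSCs, and in BCSPs it was 99.3 ± 0.412 (SD, n = 4). Mmp13, the collagenase of hypertrophic cartilage, averaged 89.2 ± 0.516 (SD, n = 4) and 89.4 ± 1.41 (SD, n = 4). The chemokine Cxcl1 averaged 72.5 and Tnfaip2 65.9 over the 8 arrays, with further probe sets of Tnfaip2 above 0 on at most 3. Ccl2 and Ccl7, monocyte chemokines, were below 0 on all 8, from -58.1 to -21.6 and from -92.4 to -19.1. Nfkb2, an NF-kB subunit, had the smallest unadjusted p of the list with Ccl20 (0.106 and 0.133, adjusted p = 1 each by limma), and both were below 0 on all 8. Each of these genes also answers to other signals, so the list does not measure TNF.

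**Figure D5:**
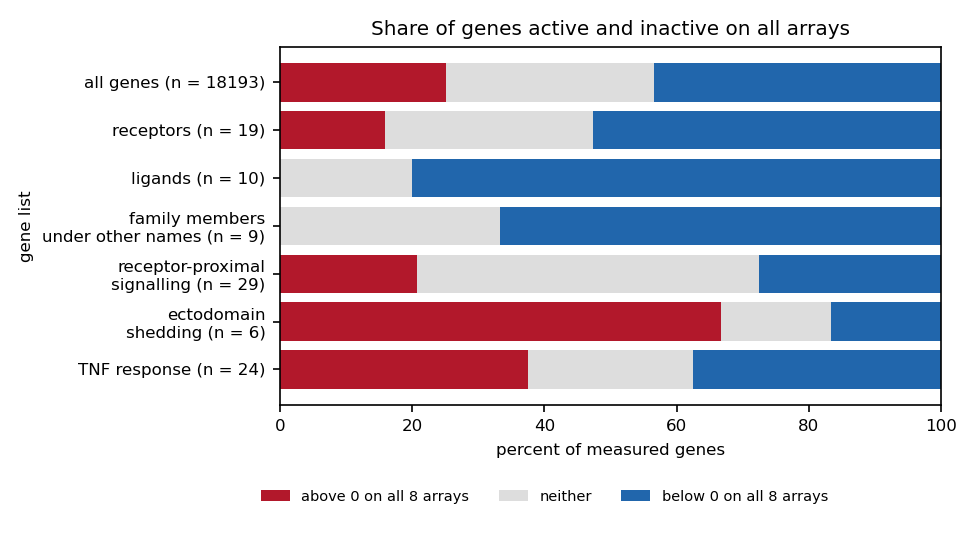
Percent of measured genes (horizontal axis) above 0 on all 8 arrays (red), below 0 on all 8 (blue) or neither (grey) for all genes and for the receptors, the ligands, family members under other names, receptor-proximal signalling, ectodomain shedding and TNF response (vertical axis, n genes). The ligand bar holds no red share and 80% blue, and the bar of all genes holds 25% red and 43.5% blue.

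The family's scores also varied between experiments. Averaged over both populations, scores were lowest in experiment 3 for 15 of the 29 genes, in experiment 4 for 7, in experiment 2 for 5 and in experiment 1 for 2. The same was not counted over all genes, so whether this order is particular to the family was not tested. The number of the 29 above 0 was 5 on SSC array 3, 6 on BCSP array 3 and 6 to 10 elsewhere. The arrays of experiment 3 also had the lowest medians over all genes, and the part of RNA quality in these values was not tested. Without both arrays of experiment 3, 4 of the 29 genes were above 0 on all 6 remaining arrays, and the count was also 4 without experiment 2 and 3 without experiment 1 or 4.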

How the data were processed

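The authors sorted the cells into Trizol, amplified the RNA, hybridized it to Affymetrix mouse arrays and submitted the arrays to Gene Expression Commons. They deposited an activity score for 45101 probe sets, from -100.03 to 100, and it was used without a log. The sources used here do not give how probes were summarised. Probe sets were named from the platform annotation, in which 34958 had 1 symbol, 932 had several and 9211 were not listed; 0 symbols changed on matching to RefSeq. The 64 control probe sets were left out. A gene with several probe sets took its scores from the one whose mean was highest.

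SSCs and BCSPs were compared over all 18193 genes in R 4.3.3, using limma 3.58.1 without a block (eBayes after lmFit, with trend, two-sided) and Benjamini-Hochberg adjustment and a threshold of 0.05. Tables were made with Python 3.11.15. The fit was tested on simulated scores drawn independently for each array. They held neither the shared experiments nor the bounds of the deposited scores, so they do not show how the fit handles those. The p-values set a difference against the spread between these arrays, which the fit without a block takes as independent.

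The title of the BCSP array of experiment 2 numbers it 3 and its description 2; the description and experiment were followed. The SSC and BCSP arrays of an experiment deviated together from the means of their groups, with correlations of 0.399, 0.177, 0.572 and 0.183 over all genes, so the shared experiment, given in the titles, pairs the arrays. Over the 29 family genes alone these correlations were -0.227, -0.0385, 0.211 and 0.000958. The block was an alternative, as were quantile normalization, median centring, filters on low scores, array weights, the mean of probe sets, the methods' t-test, eBayes without trend and leaving out arrays. Leaving out both arrays of an experiment for the activity counts was added after seeing the data.

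Per-array values are given for genes above 0 on all 8 arrays, for the 5 with the smallest unadjusted p and for any whose groups did not overlap. Tnf was added as the partner of Tnfrsf1a, and Ltbr, Tnfrsf23, Tnfsf9 and Tnfsf13b after their values were seen. Lists were described by counts and medians, with up to 4 genes of the highest mean and 2 of the smallest p named, and others as examples. The family members and the lists (signalling, shedding, TNF response, cell type markers, organ genes held as silent) were chosen with earlier results of these data known. Promoter windows are RefSeq's.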

Additional observations from a re-analysis of the deposited data

Results flagged for a closer look

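Of 58 groups of 4 arrays tested over the 29 genes, 3 held an array far from the other arrays of its group by Dixon's criterion, which chance alone meets in about 1 in 20 groups. The count of 3 is near that share. Tnfrsf12a was at 0.45 on SSC array 3, against 39.2 to 46.8 on the other SSC arrays. Tnfrsf1a was at 38.4 on BCSP array 3, against 52.2 to 54.8 on the other BCSP arrays. Tnfrsf22 was at 31.7 on BCSP array 3, against 78.0 to 78.9 on the others. All 3 values were low and came from experiment 3, whose arrays had the widest 3′ minus 5′ gap of actin (59.6 and 64.9 points). The same gap of Gapdh, 21.3 to 71.9 points over all arrays, did not set them apart. The part of RNA quality in them was not tested.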

How the results depend on the processing

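No gene, of the family or of all 18193, was called in any of 22 alternatives (21 limma fits and the methods' t-test), and the count of all genes at an unadjusted p under 0.05 ran from 84 (genes above 0 on at least 4 arrays) over 465 as reported to 949 (replicate block) and 1081 of all probe sets tested singly. With the experiment as a replicate block, which pairs the arrays, the call count stayed 0. The 3 genes active on all 8 arrays became 6 with the silent-gene threshold, 1 by the mean of probe sets and 1 when every probe set was required, and stayed at 3 to 4 when arrays were left out. The 18 genes below 0 on all 8 were 16 to 19 in all alternatives run. Tnfrsf10b stayed lower in SSCs in 21 alternatives, from -38.3 to -17.7 points, with an unadjusted p of 0.033 without SSC array 4 and 0.0358 without BCSP array 2, and adjusted p from 0.928 to 1. Without BCSP array 3 the unadjusted p was 0.0435 for Tnfrsf22 (-16.1 points) and 0.0471 for Tnfrsf4 (-19.4 points), with adjusted p = 1. The sign of 4 differences turned. Tnfrsf12a was 1.12 with array weights and -11.7 to 6.78 when arrays were left out. Tnfrsf1a was 1.13 after quantile normalization, 1.94 with array weights and -5.93 to 2.28 when arrays were left out. When arrays were left out, Tnfrsf1b ran from -35.0 (without experiment 4) to 7.58 (without experiment 1) and Tnfrsf22 from -17.3 to 4.12. The cause of these turns was not tested. The 4 arrays a group and the bounded score limit what small differences can be seen.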
